A study of Homo sapiens with 6 samples.

Results

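The genes described here encode the subunits of the mitochondrial respiratory chain (complexes I to IV) and of the ATP synthase (complex V). They were taken by symbol from the table of gene levels: symbols that begin with NDUFA, NDUFB, NDUFC, NDUFS or NDUFV and a digit, with UQCR, with COX4 to COX8, with ATP5, or with MT-ND, MT-CO, MT-CYB or MT-ATP, and SDHA, SDHB, SDHC, SDHD and CYC1. It gave 98 of the 16659 genes in the table, of which 83 are nuclear genes, 13 are genes of the mitochondrial genome and 2 are readthrough genes, transcripts that run from a subunit gene into its neighbour. Another 3 rows with a matching symbol, the pseudogenes UQCRFS1P1 and NDUFV2P1 and the divergent transcript NDUFA6-DT, were left out. COX4I2, COX7A1, COX8C and UQCRHL had no row under those symbols in the table.

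RNA was sequenced from HepaRG, an established human liver cancer line that the labels describe as a line of hepatic stem cells. The 3 libraries of the WT group come from wild-type cells, which the study names as its control. The other 3 come from cells labelled as carrying a functional knockout of PXR, the pregnane X receptor, a nuclear receptor encoded by NR1I2 that binds drugs and bile acids and switches on genes of drug metabolism. No cells of either group received a drug, and the labels do not give the edit, the number of clones or whether replicates were separate cultures, so the p-values measure only the spread between these libraries, which may be technical.

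Complexes I and II pass electrons from NADH and succinate to coenzyme Q, complex III passes them on to cytochrome c, and complex IV hands them to oxygen. Complexes I, III and IV pump protons across the inner mitochondrial membrane, and complex V uses the returning protons to make ATP. The catalytic cores of complexes I and III and the membrane part of complex V mix subunits encoded in the mitochondrial genome with nuclear ones. In complex IV the core subunits are the mitochondrially encoded MT-CO1, MT-CO2 and MT-CO3, while complex II is entirely nuclear. Hepatocytes are rich in mitochondria.

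Levels are given in scaled CPM, read counts relative to a scaled library size, as mean ± SD over the n = 3 libraries of a group. Changes are differences of log2(scaled CPM + 0.5), knockout minus wild type, ± the standard error of limma's fit across all genes. A gene is called where its Benjamini-Hochberg adjusted p over the 16219 tested genes was under 0.05, and all 98 members passed the filter for testing. Estimated depth was 11359119 to 20946039 reads in wild-type libraries and 28154452 to 33393300 in knockout libraries, so every knockout library was the deeper. NR1I2 itself stood at 8.24, 7.04 and 7.602 in wild-type libraries and at 13.1, 13.4 and 14.3 in the libraries labelled knockout, and was higher in the latter (log2 change 0.80 ± 0.084, adjusted p = 6.8e-07). A functional knockout need not lower the RNA, so this level does not check the label. The 2 groups differed across most of the transcriptome, with 79.9% of tested genes called in either direction. The summed level of the 9 hepatocyte markers in the table, of 10 listed, ran from 2226 to 2299 in wild-type and from 42983 to 44186 in knockout libraries, with 9 of 9 higher. Of the 6 stellate and mesenchymal markers in the table, of 7 listed, 5 were higher and 1 lower, and their sum ran from 97.3 to 104 and from 486 to 508. Of the leukocyte markers in the table CD68 was higher and CD14 lower, and their sum ran from 11.4 to 14.9 and from 20.05 to 20.9. The 4 cholangiocyte markers in the table, of 6 listed, were 2 higher and 2 lower (sums of 489 to 515 and of 373 to 399). Of the endothelial markers KDR was higher and PECAM1 lower (54.8 to 55.1 and 215 to 222), and of the muscle markers TNNT2 was higher and DES lower (18.5 to 19.0 and 4.11 to 5.37). The part of these markers or of depth in the results below was not tested. In such bulk RNA, fewer cells of a type and less RNA per cell cannot be told apart.

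Nuclear subunits moved in both directions and by little. Of the 83 genes, 42 were higher in the knockout libraries, 27 were lower and 14 were not called. Among all tested genes 40.3% were higher and 39.6% lower. The median log2 change of the nuclear subunits was 0.07, beside 0.01 for all tested genes, and the middle of their range, from the first to the last quartile, ran from -0.22 to 0.30, beside -0.45 to 0.49 for all genes. This near-zero median was -0.07 once each library had the same sum and -0.003 under quantile normalization, where the calls became 27 higher with 38 lower and 30 higher with 31 lower. Those scalings moved the median of all genes to -0.12 and to -0.05, and the nuclear subunits stayed 0.05 above that median in each. With equal sums 9 called members changed sign, all nuclear rises of at most 0.13 on the log2 scale, and under quantile normalization 5 did, MT-CO1 among them.

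The typical nuclear subunit changed less than the typical tested gene, a difference given without a test. The median size of the log2 change, whatever its sign, was 0.27 over the nuclear subunits, 0.47 over all tested genes and 0.38 over the 7777 protein-coding genes with a wild-type mean of 20 to 400 scaled CPM. Levels were not matched, as the median wild-type mean was 115 over the nuclear subunits and 53.3 over those protein-coding genes. Nuclear subunits outside that range of levels were kept. Called changes of 1.5-fold or more numbered 10 upward and 3 downward, where 21.6% and 20.1% of all tested genes reached that size. Changes of 2-fold or more were seen for COX7B2 and NDUFA4L2 alone, both at low levels, beside 22.7% of all tested genes. The groups did not overlap for 69 of the 83 genes, beside 80.8% of all tested genes. As a share of all signal the nuclear subunits took 1.40%, 1.41% and 1.42% in wild type and 1.43%, 1.41% and 1.40% in the knockout. This share was thus level between the groups while single subunits moved apart. Their summed level in scaled CPM was 13116, 13330 and 13370 in wild type. It was 14736, 14664 and 14534 in the knockout, without overlap.

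**Figure D1:**
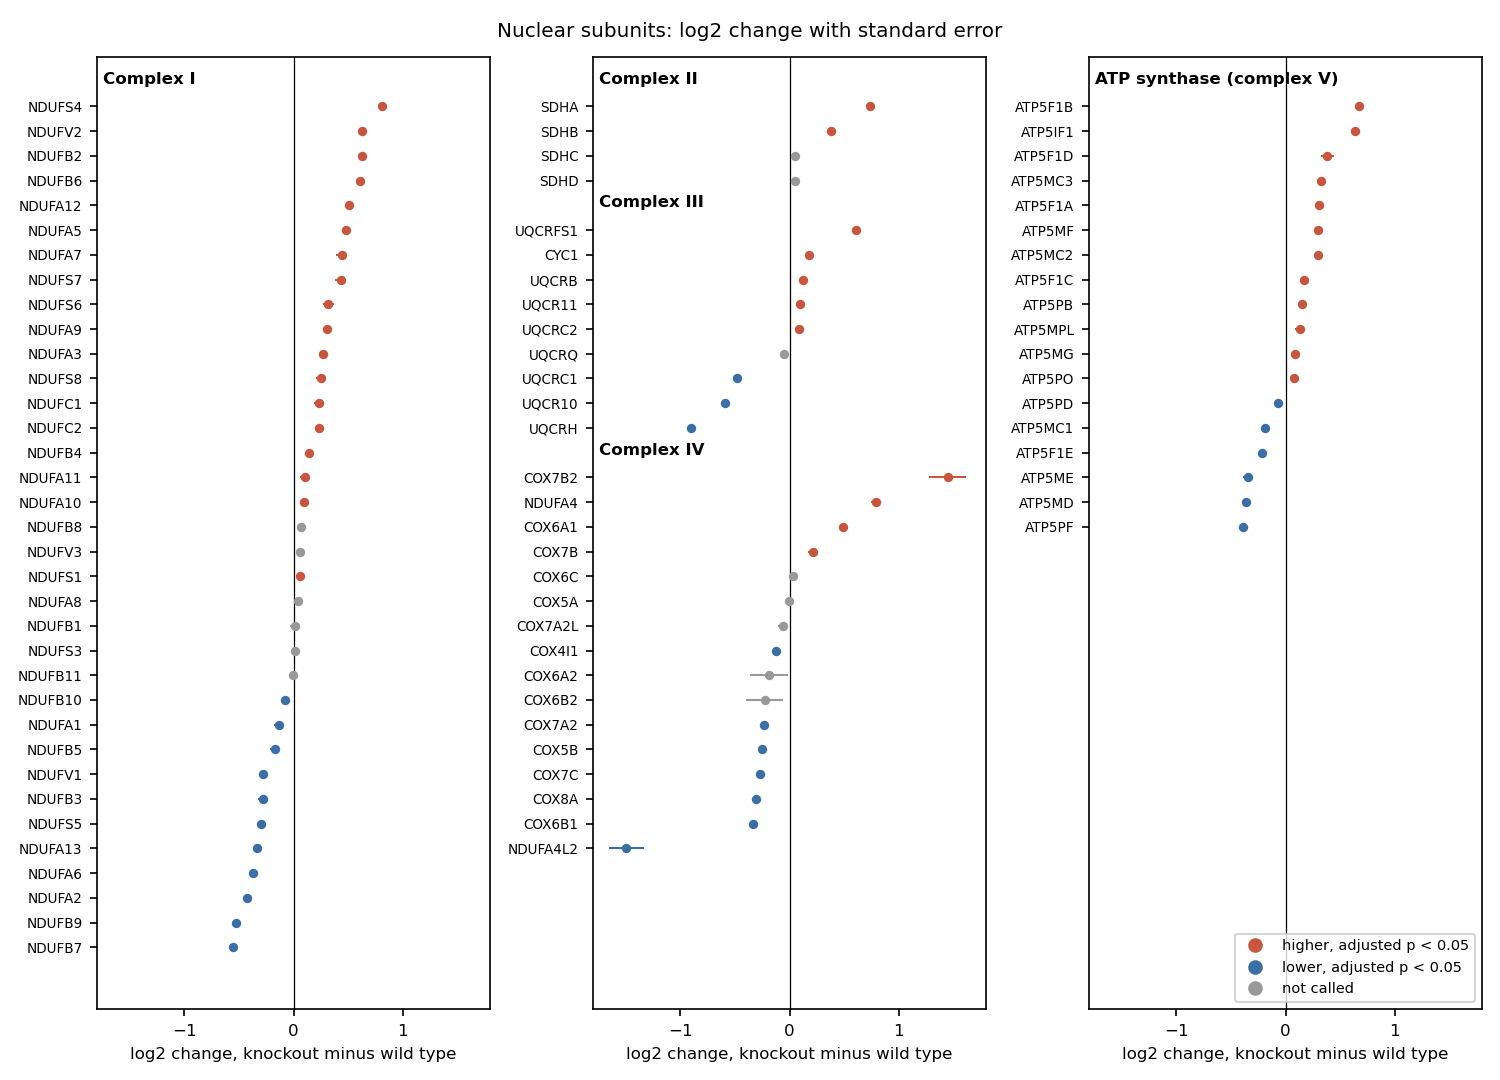
Log2 change (knockout minus wild type, horizontal axis) of 82 of the 83 nuclear subunit genes, by complex, with the standard error as a bar; red marks genes called higher, blue genes called lower and grey genes not called. Most points lie within 0.5 of 0, and each complex except complex II holds both red and blue points.

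Promoter windows were at hand for 66 of the 83 nuclear subunit genes, 250 bases before to 50 after the RefSeq start on GRCh38.p14. Short words bound by factors known to drive respiratory genes were looked for on both strands: GCGCATGC, a core of the NRF1 site, CCGGAAG, a core of the ETS site that GABP binds, and AAGATGGC, a YY1 word. The ETS and YY1 words can overlap in the letters AAG, which occurred in 0 of the 66 windows. The NRF1 word stood in 13 windows (19.7%), beside 3.27% of all 27305 promoters and 4.26% of 15842 protein-coding ones. The ETS word stood in 19 windows (28.8%, beside 10.7% and 14.2%) and the YY1 word in 11 (16.7%, beside 3.03% and 3.91%). By contrast TATAAA stood in 7 windows (10.6%, beside 11.95% and 9.63%). At least 1 of the first 3 words stood in 33 of the 66 windows, and all 3 in 2. A word match describes the sequence and is not a measured binding site.

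Stretches of 120 bases that end at the RefSeq start are printed below, 5′ to 3′ on the gene's strand, for the 3 largest called rises and 3 largest called falls among the 7 eligible members, so that promoters of subunits that rose can be read beside those of subunits that fell. Eligible members had a wild-type mean above 10, held at least 1 of the 3 words in the stretch and had at most 30 bases of it inside the GENCODE gene. Capitals mark the NRF1 word in NDUFS6 and the ETS word, in either orientation, in the others. The stretch of COX6A1 is chr12:120437993-120438112 on the plus strand, that of NDUFS6 is chr5:1801287-1801406 on the plus strand and that of UQCR11 is chr19:1605463-1605582 on the minus strand. That of NDUFB7 is chr19:14572067-14572186 on the minus strand, that of COX8A is chr11:63974500-63974619 on the plus strand and that of COX5B is chr2:97645942-97646061 on the plus strand.
COX6A1: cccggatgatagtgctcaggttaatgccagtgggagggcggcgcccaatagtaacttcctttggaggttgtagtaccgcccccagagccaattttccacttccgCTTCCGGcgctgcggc
NDUFS6: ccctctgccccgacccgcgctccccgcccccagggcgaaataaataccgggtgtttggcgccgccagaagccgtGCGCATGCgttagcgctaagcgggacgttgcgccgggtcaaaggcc
UQCR11: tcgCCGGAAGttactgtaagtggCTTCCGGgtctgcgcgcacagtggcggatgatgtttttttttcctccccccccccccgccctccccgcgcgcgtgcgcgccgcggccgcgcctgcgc
NDUFB7: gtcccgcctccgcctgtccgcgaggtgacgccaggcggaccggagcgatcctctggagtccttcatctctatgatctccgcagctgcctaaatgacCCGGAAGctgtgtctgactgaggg
COX8A: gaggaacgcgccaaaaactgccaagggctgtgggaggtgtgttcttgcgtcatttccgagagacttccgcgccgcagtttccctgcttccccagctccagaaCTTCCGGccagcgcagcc
COX5B: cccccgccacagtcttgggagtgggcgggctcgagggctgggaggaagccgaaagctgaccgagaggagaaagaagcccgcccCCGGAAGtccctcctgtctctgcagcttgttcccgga
UQCR11, which was higher in the knockout libraries (log2 change 0.10 ± 0.033, which turned to -0.04 with equal sums), holds the ETS word in both orientations. COX6A1, which was higher, and NDUFB7, COX8A and COX5B, which were lower, hold it once each. Over the 19 windows with the ETS word, 5 genes were higher, 11 lower and 3 not called, and the median log2 change was -0.12, beside 0.10 in the 47 windows without it. Over the 13 with the NRF1 word 7 were higher and 4 lower, with a median of 0.14 beside 0.06 without it, and over the 11 with the YY1 word 8 were higher and 3 lower, with a median of 0.27 beside 0.04. These splits were made after the changes were known and carry no test.

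Complex I, the NADH dehydrogenase, had 36 nuclear subunits, of which 19 were higher, 11 lower and 6 not called. Their median log2 change was 0.08, which fell below 0 to -0.05 with equal sums, where 14 were higher and 16 lower, and was 0.04 under quantile normalization, with 16 higher and 11 lower. Its 7 nuclear core subunits, which carry the flavin and the iron-sulfur clusters, counted 5 higher, among them NDUFV2, and NDUFS1, which changed sign with equal sums and under quantile normalization, 1 lower (NDUFV1) and 1 not called. The 29 accessory subunits, which surround and stabilise that core, counted 14 higher, 10 lower and 5 not called.

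The largest rise in complex I was that of NDUFS4 (chromosome 5, 53560633 to 53683340 in GENCODE 29 on GRCh38, as for the positions below), an accessory subunit needed late in assembly and a known Leigh syndrome gene. It stood at 31.7, 32.8 and 32.9 scaled CPM in wild-type libraries and at 59.4, 57.1 and 55.95 in knockout libraries, with no overlap (log2 change 0.81 ± 0.041, adjusted p = 1.8e-10). NDUFV2 and NDUFV1 sit side by side in the electron input module, where NDUFV1 binds NADH and the flavin. NDUFV2 rose from 93.5, 99.9 and 91.3 to 145, 147 and 148 (log2 change 0.63 ± 0.035). NDUFV1 fell from 244, 243 and 245 to 192, 203 and 206 (log2 change -0.28 ± 0.030). The ratio of their RNA levels, which a scaling factor per library cannot alter, went from 0.389 ± 0.0194 to 0.732 ± 0.0188, so that partners of 1 module moved in opposite directions.

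NDUFB2, an accessory subunit of the membrane arm, was the third of the large rises, from 74.5 ± 3.04 to 115 ± 0.924 (log2 change 0.63 ± 0.034). Among the falls NDUFB7, also of the membrane arm, went from 78.8, 74.5 and 81.2 to 51.04, 54.9 and 53.4 (log2 change -0.55 ± 0.041, adjusted p = 1.5e-08). NDUFB9 went from 182 ± 8.22 to 126 ± 3.704 (log2 change -0.52 ± 0.036) and NDUFA2, of the matrix arm, from 46.96 ± 1.76 to 34.9 ± 1.02 (log2 change -0.42 ± 0.044). None of these groups of libraries overlapped. NDUFAB1, the mitochondrial acyl carrier protein that is also a complex I subunit but lies outside the choice by symbol, was lower, at 79.1 ± 3.58 and 68.6 ± 1.75 (log2 change -0.20 ± 0.039).

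Complex II, succinate dehydrogenase, split between its catalytic part and its membrane anchor. SDHA (chromosome 5, 218241 to 256700), the flavoprotein that oxidises succinate, stood at 215, 216 and 213 in wild-type and at 352, 355 and 368 in knockout libraries. Its log2 change was 0.74 ± 0.026 (adjusted p = 4.4e-12). SDHB, the iron-sulfur subunit, stood at 119.8, 116 and 121 and at 159, 154 and 152 (log2 change 0.38 ± 0.030). Both were clear of overlap and kept their rise under each scaling.

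The anchor subunits SDHC and SDHD, which help form the coenzyme Q site in the membrane, were not called. SDHC stood at 117, 114 and 113 and at 123, 115 and 119 (log2 change 0.05 ± 0.032, adjusted p = 0.14), and SDHD at 232, 243 and 232 and at 251, 238 and 244 (log2 change 0.05 ± 0.030, adjusted p = 0.14). Both pairs of groups overlapped. Their small positive values turned into called falls, -0.08 and -0.09, with equal sums. The ratio of SDHA to SDHC, free of scaling, was 1.84, 1.896 and 1.88 in wild type against 2.85, 3.09 and 3.09 in the knockout. The pseudogenes SDHAP1 and SDHAP3, near copies of SDHA between which reads can be split, stood at 30.6 and 6.24 in wild type and at 35.3 and 8.397 in the knockout, far below SDHA.

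Complex III, the cytochrome bc1 complex, counted 5 nuclear subunits higher, 3 lower and 1 not called, with a median of 0.09. The counts turned to 1 higher and 4 lower under both scalings, and the median changed sign to -0.05 with equal sums and to -0.03 under quantile normalization. UQCRH (chromosome 1, 46303631 to 46316776), the hinge protein between cytochrome c1 and cytochrome c, fell furthest of the subunits with a level above 10. It stood at 311, 324 and 326 in wild-type and at 177, 173 and 164 in knockout libraries (log2 change -0.90 ± 0.033, adjusted p = 5.0e-12). Reads of UQCRH can also match UQCRHL, its near copy, so its level is uncertain to that extent. UQCRFS1, the Rieske iron-sulfur protein of the catalytic core, went the other way, from 92.9, 96.4 and 96.4 to 150.4, 140.4 and 145 (log2 change 0.61 ± 0.033). Between them the ratio of UQCRFS1 to UQCRH went from 0.297 ± 0.00182 to 0.849 ± 0.03698, the widest shift among the 8 ratios computed.

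CYC1, cytochrome c1, was higher by a small step, at 159.7, 156 and 165 and 177, 183 and 185 (log2 change 0.18 ± 0.030, adjusted p = 8.6e-05), a call that was lost with equal sums and under quantile normalization. UQCRB rose by less still (log2 change 0.12 ± 0.029) and its value changed sign with equal sums. UQCR10, a small subunit next to cytochrome c1, fell from 77.1 ± 1.86 to 51.2 ± 2.38 (log2 change -0.59 ± 0.040), and UQCRC1, a core protein of the matrix side, from 278 ± 5.796 to 199 ± 9.98 (log2 change -0.48 ± 0.035). UQCRC2, its partner on that side, was 236 and 251 (log2 change 0.09 ± 0.025, which changed sign under both scalings).

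Complex IV, cytochrome c oxidase, had 7 nuclear subunits lower, 4 higher and 5 not called, with a median of -0.15. The counts were 10 lower and 3 higher with equal sums (median -0.27) and 9 lower and 3 higher under quantile normalization (median -0.28), and without wild-type replicate 1 the median was -0.07, with 8 lower and 4 higher. Whether it differs from the other complexes was not tested. NDUFA4 (chromosome 7, 10931951 to 10940256), named for complex I but now counted as a subunit of complex IV, rose from 242, 282 and 272 to 462, 469 and 448 (log2 change 0.79 ± 0.044, adjusted p = 6.4e-10). COX6A1 rose from 272, 275 and 279.7 to 385, 394 and 384 (log2 change 0.49 ± 0.025). COX6B1, which faces the intermembrane space and helps hold the dimer, fell from 233, 236 and 240.1 to 186, 189 and 188 (log2 change -0.33 ± 0.025). The ratio of COX6A1 to COX6B1 was 1.17 ± 0.00152 in wild type and 2.07 ± 0.0212 in the knockout. COX8A (216 and 175, log2 change -0.30 ± 0.026), COX7A2 (227 and 193, log2 change -0.24 ± 0.030) and COX4I1 (346 and 318, log2 change -0.12 ± 0.025) were lower by less.

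Several complex IV subunits come in pairs, of which 1 form prevails in most tissues and the other in muscle, testis or stressed cells. In both groups the common form prevailed in each pair with both forms in the table. COX6A2, the heart and muscle form, stood at 1.73, 0.9095 and 1.21 and at 1.02, 1.15 and 0.965, with overlap and no call, at levels 2.38 per kilobase of exon in wild type against 205 for COX6A1. COX6B2, the testis form, stood at 2.56, 1.62 and 1.504 and at 1.39, 1.75 and 1.405, also not called (0.496 per kilobase, against 253 for COX6B1). COX7A2L, a factor of supercomplexes, stood at 65.3 ± 3.01 and at 62.6 ± 2.51 and was not called, while it was called lower with equal sums (-0.20) and under quantile normalization (-0.10), and also without wild-type replicate 1 (-0.10).

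COX7B2 and NDUFA4L2 moved furthest of all members and lay among the lowest. COX7B2, known mainly from testis, stood at 0.412, 0.239 and 0.6297 in wild-type and at 2.002, 2.19 and 1.805 in knockout libraries (log2 change 1.45 ± 0.17), on 24 estimated reads in the 3 wild-type libraries together and 182 in the knockout libraries. Its common partner COX7B stood at 166 ± 12.3 and 192 ± 2.96 (log2 change 0.21 ± 0.043), a call lost with equal sums and under quantile normalization. NDUFA4L2, a form of NDUFA4 known to be switched on in low oxygen, went the other way, from 2.39, 2.58 and 3.06 to 0.554, 0.482 and 0.871 (log2 change -1.49 ± 0.16), on 151 and 59 estimated reads. NDUFA4 and NDUFA4L2 thus moved in opposite directions, at levels per kilobase of 74.7 and 0.954 scaled CPM in wild type.

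Complex V had all 18 of its nuclear genes called, 12 higher and 6 lower, beside 79.9% of all tested genes called in either direction. Their median of 0.14 shrank to 0.004 with equal sums, where 7 were higher and 6 lower. Under quantile normalization it was 0.06, with 8 higher and 6 lower. In the F1 head and stalk, where ATP is made, 4 of 5 subunits rose, and 3 did with equal sums. ATP5F1B (chromosome 12, 56638175 to 56646068), the catalytic beta subunit and the most abundant nuclear member, stood at 1365, 1360.4 and 1384 in wild-type and at 2191, 2148 and 2199.9 in knockout libraries (log2 change 0.67 ± 0.026, adjusted p = 1.1e-11). Its rise was 0.53 with equal sums and 0.21 under quantile normalization, both called. ATP5F1A, the alpha subunit that alternates with beta in the head, rose less, from 874, 911 and 904 to 1118, 1087 and 1111 (log2 change 0.30 ± 0.027, and 0.16 and 0.14 under those scalings). The ratio of beta to alpha RNA went from 1.53 ± 0.0351 to 1.97 ± 0.0109, although the head holds equal numbers of each protein. ATP5F1D, the delta subunit of the stalk, rose from 50.4 ± 4.41 to 65.8 ± 4.71 (log2 change 0.38 ± 0.062), and ATP5F1E, the epsilon subunit beside it, fell from 252 ± 2.37 to 216 ± 6.26 (log2 change -0.22 ± 0.028).

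The c ring, the rotor that protons turn, is made of 1 protein encoded by 3 genes. ATP5MC3 (355 ± 9.69 and 444 ± 6.86, log2 change 0.32 ± 0.027) and ATP5MC2 (146 ± 0.529 and 179.8 ± 0.973, log2 change 0.30 ± 0.026) rose, and ATP5MC1 (101 ± 2.798 and 88.1 ± 2.696, log2 change -0.19 ± 0.034) fell. Their levels per kilobase in wild type were 52.3, 36.7 and 38.4, with all annotated exons of a gene counted in its length. ATP5MC3 was thus the highest in wild type. The other 2 lay close together only after division by those lengths, as their undivided levels were 146 and 101. ATP5IF1, the inhibitor that blocks ATP hydrolysis by the enzyme, rose from 35.9, 37.5 and 36.1 to 57.2, 58.8 and 55.2 (log2 change 0.64 ± 0.041). Its ratio to ATP5F1B was 0.0266 ± 0.000808 in wild type and 0.0262 ± 0.00114 in the knockout, with overlapping libraries. Under quantile normalization, which is not a factor per library, the changes were 0.61 for ATP5IF1 and 0.21 for ATP5F1B.

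The peripheral stalk, which keeps the head from turning, counted 2 higher and 2 lower, and the small membrane subunits 3 higher and 2 lower. Under both scalings neither rise in the stalk was called, and 1 membrane subunit was higher and 2 lower. The largest falls lay here, with ATP5PF from 137, 132 and 135 to 105, 105 and 98.9 (log2 change -0.39 ± 0.032), ATP5MD from 189.7 ± 7.95 to 147 ± 4.402 (log2 change -0.36 ± 0.035) and ATP5ME from 93.4 ± 3.07 to 73.3 ± 3.76 (log2 change -0.35 ± 0.041). The readthrough gene ATP5MF-PTCD1, which shares exons with ATP5MF, stood at 10.4 ± 0.787 and at 17.3 ± 1.51 (log2 change 0.71 ± 0.083). ATP5MF itself stood at 115 ± 3.77 and at 141 ± 7.54 (log2 change 0.30 ± 0.039). How reads were shared between them is uncertain. NDUFC2-KCTD14, the other readthrough gene, was not called (1.703 ± 0.213 and 1.502 ± 0.524).

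The 13 subunits encoded in the mitochondrial genome moved in both directions. Of the 7 ND genes of complex I, 5 were lower and 2 were not called, while MT-ATP6 of complex V and 2 of the 3 CO genes of complex IV, neither of which was called under quantile normalization, were higher. In all 3 were higher, 5 lower and 5 not called, beside 40.3% and 39.6% of all tested genes, and the median log2 change was -0.10. That median was -0.24 with equal sums, -0.21 under quantile normalization, -0.03 without wild-type replicate 1 and -0.18 without wild-type replicate 3. The mitochondrial genome is transcribed as long transcripts that are then cut, so its genes do not have promoters of their own.

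MT-ND5, an antiporter-like subunit of the proton-pumping arm, fell furthest, from 131, 117 and 114 in wild-type to 82.5, 81.3 and 77.98 in knockout libraries (log2 change -0.57 ± 0.046, adjusted p = 3.5e-08). MT-ND2 fell from 108, 97.4 and 91.8 to 72.4, 68.9 and 67.8 (log2 change -0.50 ± 0.050). MT-ND3 fell from 193, 183 and 171 to 149.8, 141 and 137 (log2 change -0.36 ± 0.043). All these subunits sit in the membrane arm of complex I. MT-ND4L, which shares bases with MT-ND4 at its end, fell from 27.7 ± 1.68 to 20.6 ± 1.41 (log2 change -0.42 ± 0.064), and MT-ND4 from 185 ± 17.4 to 161 ± 7.59 (log2 change -0.20 ± 0.054, adjusted p = 0.0037; 0.052 without the trend in limma's variance).

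MT-ND1 stood at 83.7, 61.3 and 60.05 and at 75.8, 73.8 and 67.7, and MT-ND6, the gene on the other strand, at 23.9, 18.9 and 18.98 and at 19.3, 19.6 and 15.2. Both overlapped between groups and were not called. MT-CYB, cytochrome b of complex III, stood at 213, 189.6 and 173 and at 181, 177 and 175 (log2 change -0.10 ± 0.054, adjusted p = 0.088). In each of the 3 genes wild-type replicate 1 was the highest of its group, as it was for 12 of the 13 mitochondrial subunits; it was also the shallowest library.

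MT-CO1 and MT-CO3, catalytic and structural subunits of complex IV, were the most abundant members of either genome. MT-CO1 rose from 5813, 5701 and 5359 to 6892, 6909 and 6901 (log2 change 0.30 ± 0.037), and MT-CO3 from 3863, 3910.4 and 3681 to 4846, 4780.2 and 4696 (log2 change 0.32 ± 0.033). Under quantile normalization neither was called and MT-CO1 changed sign to -0.06. MT-CO2, which takes electrons from cytochrome c, stood at 1100.4, 959 and 886 and at 913, 927 and 915, with overlap and no call, though it was called lower with equal sums (-0.23), under quantile normalization (-0.21) and without wild-type replicate 3 (-0.16). Levels per kilobase in wild type were 4869.8 for MT-CO3, 3647 for MT-CO1 and 1435 for MT-CO2 against 66.4 for MT-ND5.

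MT-ATP6, the subunit that carries protons to the c ring, rose from 106, 88.2 and 83.4 to 139.7, 135 and 129 (log2 change 0.55 ± 0.066, adjusted p = 2.7e-06). MT-ATP8 shares a transcript with it and overlaps it in sequence, and stood at 9.81, 5.55 and 5.13 and at 8.93, 8.67 and 5.601 with no call. At 6.83 scaled CPM MT-ATP8 was the lowest mitochondrial member, and its short length makes reads hard to assign between the 2. Without wild-type replicate 1 it was called higher (log2 change 0.47, adjusted p = 0.016), as was MT-ND1 (0.25, adjusted p = 2.2e-04), so that 5 mitochondrial subunits were higher in place of 3.

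A share within the mitochondrial subunits does not depend on the scaling of a library. The ND genes together took 6.51%, 5.92% and 6.04% of the summed level of the 13 subunits in wild type and 4.34%, 4.21% and 4.02% in the knockout, with no overlap. The CO genes took 90.7%, 91.6% and 91.5% and then 93.2%, 93.4% and 93.7%. The ratio of MT-CO3 to MT-ND5, the CO gene that rose most and the ND gene that fell most, was 29.6, 33.6 and 32.4 in wild type. It was 58.7, 58.8 and 60.2 in the knockout. The balance between the summed ND and CO transcripts was therefore shifted in each knockout library, including against wild-type replicate 1. Not every gene followed its sum, as the mean of MT-CO2 went from 982 to 918 and that of MT-ND1 from 68.4 to 72.4, neither called.

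The whole of the 13 subunits took 1.27%, 1.22% and 1.15% of all signal in wild type and 1.32%, 1.30% and 1.29% in the knockout. The mitochondrial ribosomal RNAs were not called: MT-RNR1 stood at 170.1 ± 41.9 and 153 ± 5.48, and MT-RNR2 at 1054 ± 214 and 1145 ± 67.7. Nuclear copies of mitochondrial genes can take some of the reads. MTCO1P12 stood at 43.1 and 54.8 and MTATP6P1 at 8.39 and 12.04, both higher in the knockout as their mitochondrial originals were. MTND2P28 stood at 2.27 and 1.97 and was not called.

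**Figure D2:**
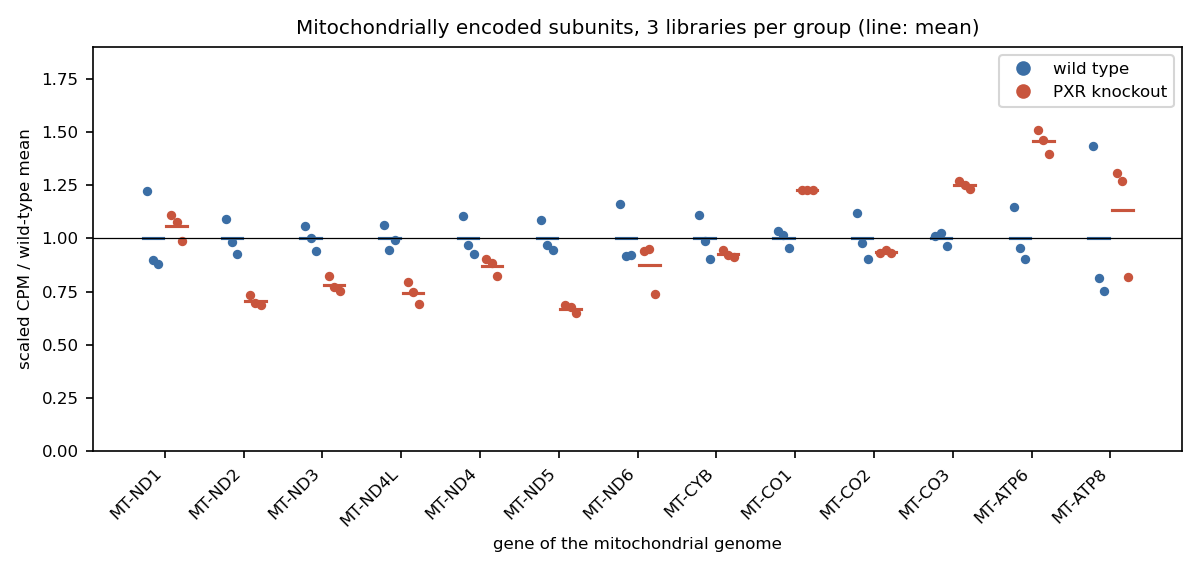
Level of each mitochondrially encoded subunit in each library divided by the wild-type mean of that gene (vertical axis, ratio without unit), with wild-type libraries in blue, knockout libraries in red and a line at the group mean. The red points of MT-ND2, MT-ND3, MT-ND4L, MT-ND4 and MT-ND5 lie below the blue ones, those of MT-CO1, MT-CO3 and MT-ATP6 lie above, and the other 5 genes overlap.

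Where a nuclear subunit gene lies in the genome went with its change on a few chromosomes. The median log2 change over tested genes was 0.43 on chromosome 7, 0.33 on chromosome 12, 0.16 on chromosome 9 and -0.77 on chromosome 22, and lay between -0.19 and 0.06 on the other autosomes and X. On chromosome 7 all 4 nuclear subunits (NDUFA4, NDUFB2, NDUFA5 and ATP5MF) were higher. On chromosome 12, 5 of 6 were higher (ATP5F1B, NDUFA12, COX6A1, NDUFA9 and ATP5MC2) and NDUFA4L2 was lower. Both subunits on chromosome 22, UQCR10 and NDUFA6, were lower. Outside those 3 chromosomes 33 of 71 nuclear subunits were higher and 24 lower, with a median of 0.05.

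For some of these genes the same was seen at closer range. The median change of the other tested genes within 10 Mb on either side was 0.49 around ATP5F1B, whose own change was 0.67, and 0.46 around COX6A1, whose own change was 0.49. Around NDUFA4 it was 0.37, leaving 0.42 above its neighbours, and around UQCR10 it was -0.73, so that UQCR10 at -0.59 fell less than its neighbours. In contrast SDHA (0.04), NDUFS4 (0.08), NDUFV2 (-0.09), UQCRFS1 (-0.04), UQCRH (-0.09) and ATP5IF1 (-0.05) had neighbours with medians close to 0. Some members changed against the sign of their neighbours. They include NDUFA9 (0.31, neighbours -0.10) and NDUFA4L2 (-1.49, neighbours 0.50) on chromosome 12, and ATP5MC3 (0.32, neighbours -0.35). Across the 83 genes the neighbour median lay within 0.2 of 0 for 68, and 75 kept the sign of their change once it was subtracted. Pearson's r between neighbour median and change was 0.32 and Spearman's rho 0.32 (n = 83 genes, which are not independent replicates and share libraries and some windows).

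**Figure D3:**
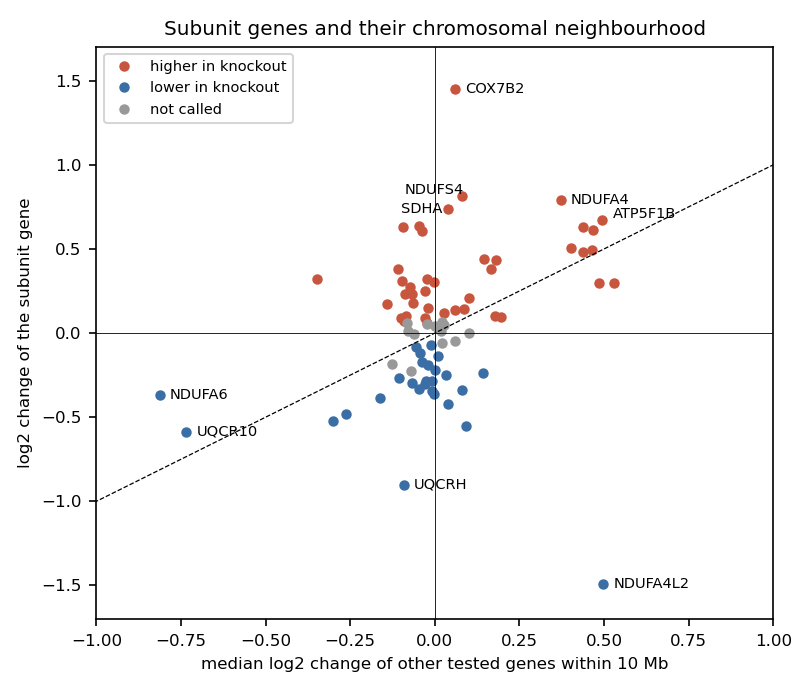
Log2 change of 82 of the 83 nuclear subunit genes (vertical axis) against the median log2 change of the other tested genes within 10 Mb on either side (horizontal axis), with red for genes called higher, blue for genes called lower, grey for genes not called and a dashed line where both are equal. NDUFA6 and UQCR10 lie far to the left and a group with ATP5F1B far to the right, while NDUFS4, SDHA and UQCRH change with neighbours near 0.

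Counts differed with the length of the exons. Of the 41 nuclear subunit genes with under 2475 bases of exon, 17 were higher and 17 lower, with a median log2 change of -0.001, and of the 42 at or above that length 25 were higher and 10 lower, with a median of 0.09. Among other protein-coding genes below that length 692 of 1772 were higher and 741 lower. At or above it 4918 of 11583 were higher and 4668 lower. The split carries no test and is given for the deposited scaling only. Across the 83 genes Pearson's r between log2 exon length and change was 0.20 and Spearman's rho 0.27, beside -0.008 and 0.01 over 13355 other protein-coding genes.

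Genes that assemble the complexes were taken as lists, whose counts stand beside 40.3% higher and 39.6% lower among all tested genes. Of 18 complex I assembly factors 4 were higher and 11 lower (median -0.19), with TMEM186, a member of the complex that assembles the membrane arm, at 17.7 ± 1.05 and 7.59 ± 0.903 (log2 change -1.17 ± 0.090) and NDUFAF1 at 16.9 ± 0.7304 and 22.9 ± 0.465 (log2 change 0.43 ± 0.058). Of 4 for complex II 1 was higher, SDHAF4 (0.44 ± 0.088), and 3 lower, with the largest fall in SDHAF3 (-0.84 ± 0.063), each on the log2 scale. Of 6 for complex III 1 was higher and 4 lower (median -0.39). LYRM7, the chaperone that hands over UQCRFS1, fell from 121, 123 and 128 to 45.1, 42.3 and 44.5 (log2 change -1.49 ± 0.036, adjusted p = 7.8e-14), while UQCRFS1 itself rose, and UQCC2 rose by a log2 change of 0.18 ± 0.050, a call lost with equal sums.

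The 25 complex IV assembly factors were split into 10 higher, 10 lower and 5 not called, with a median of 0.006 that turned negative under equal sums (-0.13, with 9 higher and 14 lower) and quantile normalization (-0.02). COX19, a protein needed for copper handling whose gene lies on chromosome 7, rose from 7.202, 8.33 and 7.92 to 30.4, 31.2 and 30.3 (log2 change 1.91 ± 0.069), and COX20, a chaperone of the MT-CO2 protein, fell from 49.5 ± 1.697 to 32.7 ± 0.388 (log2 change -0.59 ± 0.042). Among 5 for the ATP synthase TMEM70 was higher (log2 change 0.57 ± 0.063), DMAC2L lower (log2 change -0.27 ± 0.055) and 3 not called, while 1 was higher and 4 lower with equal sums.

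Genes that keep and transcribe mitochondrial DNA counted 2 higher, 10 lower and 3 not called of 15, with a median of -0.22. TWNK, the mitochondrial DNA helicase, fell from 67.7, 65.5 and 66.7 to 18.02, 18.04 and 19.2 (log2 change -1.83 ± 0.044, adjusted p = 7.4e-14), and MTERF2, a binding protein of mitochondrial DNA, rose from 18.7 ± 1.83 to 35.1 ± 0.633 (log2 change 0.90 ± 0.066). Of 16 genes of mitochondrial RNA handling 4 were higher and 10 lower (median -0.20), with the largest fall in TRMT10C, a subunit of mitochondrial RNase P, from 50.1 ± 2.77 to 26.5 ± 0.958 (log2 change -0.91 ± 0.050), and the largest rise in FASTK, from 70.2 ± 2.12 to 108 ± 6.86 (log2 change 0.62 ± 0.043).

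Among 11 nuclear regulators of respiratory genes 4 were higher and 5 lower (median -0.16), with the estrogen-related receptor ESRRG rising from 8.53 ± 0.598 to 16.8 ± 1.48 (log2 change 0.93 ± 0.084) and TFEB, a regulator of lysosomes and mitochondrial turnover, falling from 17.4 ± 1.22 to 10.1 ± 0.443 (log2 change -0.75 ± 0.075). PPARGC1A, the coactivator PGC-1alpha that drives mitochondrial genes, stood at 277, 275 and 271 in wild type and at 175, 173 and 171 in the knockout (log2 change -0.66 ± 0.025). Electron carriers and coenzyme Q synthesis counted 11 higher, 4 lower and 2 not called of 17, with a median of 0.31. CYCS, cytochrome c itself, rose from 419 ± 12.3 to 629.7 ± 8.97 (log2 change 0.59 ± 0.027). PDSS1 and PDSS2, the 2 subunits of the enzyme that makes the coenzyme Q tail, moved apart, PDSS2 from 18.7, 17.6 and 17.7 to 36.3, 34.1 and 36.05 (log2 change 0.96 ± 0.052) and PDSS1 from 19.9, 21.5 and 24.9 to 10.8, 10.7 and 9.77 (log2 change -1.04 ± 0.083). Of 4 carriers of adenine nucleotides and phosphate in the table, the phosphate carrier SLC25A3 on chromosome 12 rose from 733 ± 13.7 to 1257 ± 14.4 (log2 change 0.78 ± 0.026) and SLC25A6 fell from 146 ± 3.47 to 113 ± 6.696 (log2 change -0.37 ± 0.040). Apart from complex IV assembly, the medians of these lists kept their sign with equal sums and under quantile normalization.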

How the data were processed

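RNA of untreated HepaRG cells was measured in 3 wild-type and 3 PXR knockout libraries, grouped and numbered by the labels; per the labels' protocols a stranded mRNA kit was used on total RNA, and the series describes paired-end reads. The tools listed are Bowtie2, FastQC, Trim Galore, limma and edgeR, and the build is hg38, per the submitters' processing notes. The sample titles begin with RSEM, a name that is not among those tools. Whether it was the counting method was not stated in the sources used here. Versions, the role of each tool and the strand setting of the counting were also not given there.

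The deposited table holds a normalized signal per gene. It is named for log2 CPM, but its values are linear (the highest is 33404), and they were treated as scaled CPM. Columns of this deposited signal summed to 936409 to 947974 in wild type and to 1028470 to 1042830 in the knockout. Values stepped in hundredths of a read, which gave the estimated depths, with 1 read worth 0.031 to 0.082 scaled CPM. Of the values under 20 reads, 67.9% to 76.4% lay within 0.006 of a whole number, too few for a test on counts. The table has 16673 rows, less 14 duplicates for the pseudoautosomal region of Y, and 21 symbols turned into dates were put back. In all, 16608 of 16659 identifiers matched GENCODE 29 on GRCh38, the source of coordinates, exon lengths and gene types.

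Genes above 1 in at least 3 of the 6 libraries were tested on log2(scaled CPM + 0.5) with limma 3.58.1 in R 4.3.3 (two-sided; group as the factor; moderated variances that follow a trend on the mean), and p-values were adjusted by Benjamini-Hochberg over 16219 genes. This scale understates changes of low genes. On simulated data for this comparison, run on 15272 genes with 50 changed at each of 1.5-, 2-, 4- and 8-fold, the fit recovered 100% at each size with 9 false calls among 209. No change below 1.5-fold was simulated, so recovery of smaller changes was not tested. Recovery was not split by level either. At levels as low as those of COX6A2, COX6B2, COX7B2 and NDUFA4L2 it was not tested separately. The changed genes were also far fewer than those called in these data. Tables and figures used Python 3.11.15, pandas 2.3.3, numpy 2.4.6, scipy 1.17.1 and matplotlib 3.10.9.

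The members and lists were chosen with earlier results of these data known. Genes were named by a rule: all mitochondrial subunits; SDHA, SDHB, SDHC, SDHD and CYC1; the 3 largest called rises and falls of nuclear complexes I, III, IV and V; paired forms; and the largest rise and fall of each other list. The values of 1 nuclear member are not reported here, although it stays in the counts. Promoter stretches of members on chromosome 8 were not printed. Other genes named, those of the printed stretches, the pseudogene copies, core and partner subunits, PPARGC1A, CYCS, the ratios, and members by chromosome included, were chosen after their values were seen. Lists are described by counts and medians without a test. Replicates correlated at 0.995 or more on the log2 scale within groups and at 0.869 to 0.871 between them, and their mean chi-square per gene of 2.23 to 9.74 was above sampling noise, so each library counted as 1 replicate. Alternatives were other pseudocounts (0.1 and 1), no filter, equal sums with and without mitochondrial genes, quantile normalization, no variance trend, the replicate number as a block, and leaving out each library.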

Additional observations from a re-analysis of the deposited data

How the results depend on the processing

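With libraries scaled to equal sums, 27 nuclear subunits were higher in place of 42, 8 mitochondrial ones lower in place of 5, and the nuclear median was -0.0711; leaving mitochondrial genes out of the sums gave 27, 8 and -0.0699. Calls over all genes were 5342 higher and 7705 lower with equal sums, against 6534 and 6426 as deposited. Quantile normalization left 1 mitochondrial subunit higher and a nuclear median of -0.00298. With equal sums, with and without mitochondrial genes, SDHC turned to -0.0831 and -0.0819, SDHD to -0.0891 and -0.0879, and UQCRB to -0.0184 and -0.0172. Under quantile normalization SDHD turned to -0.0646 and MT-CO1 to -0.0635. Leaving out 1 library at a time gave 3 to 5 mitochondrial subunits higher, the 5 without wild-type replicate 1, and nuclear medians of 0.0659 to 0.0798. Replicate numbers did not pair the samples (deviation correlations of -0.02, -0.06 and 0.02, and wild-type replicate 1 correlated best with another number). The replicate block gave 39 nuclear subunits higher and 26 lower, and 12916 calls over all genes against 12960, and it added calls of MT-CYB (adjusted p = 0.025) and MT-ND6 (adjusted p = 0.037). Without the variance trend 35 nuclear subunits were higher and 24 lower, with 12619 calls over all genes. Pseudocounts, the filter and the variance trend kept every sign among the 50 named members, and all of their calls except that of MT-ND4 without the trend. Depth limits COX7B2 and NDUFA4L2 most, with 24 and 59 estimated reads in the lower group.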
